A study of Mus musculus with 6 samples.

Results

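Elastic fibers and basement membranes are the matrix structures served by the 10 genes described here, which were Fbn1, Fbn2, Eln, Ltbp1, Ltbp2, Lox, Loxl1, Loxl2, Nid1 and Nid2. They were chosen by name, as rows whose symbol is one of these 10, out of 18444 genes listed in at least 1 of 6 mouse liver libraries. The rule used no measured value, but the 10 were listed with earlier results of these data known. The shares of members called below are therefore not those of a list made blind to the data. The libraries came from 2 models of liver disease in male C57BL/6 mice, which the methods give as C57BL/6J, labelled as 6 to 8 weeks old, with 1 library for each of 3 conditions per model. In the diet model these were a control on standard diet (CD), a high-fat diet (HFD) and HFD with JT003, and the methods give 16 weeks of diet with JT003 injected for 4 weeks. In the fibrosis model these were corn oil alone (Oil), CCl4 in corn oil, and CCl4 with JT003, and the methods give injections every 3 days for 6 weeks with JT003 for 3 weeks. After 16 weeks of diet the labelled age cannot be the age at collection, which is not given. JT003 is a peptide agonist of the adiponectin receptors AdipoR1 and AdipoR2, given at 500 μg/kg in both models. The labels name no engineered allele. The HFD library is labelled as NASH. The study describes its sequenced diet groups as HFD with or without JT003, and a second regimen of its methods, in which HFD was combined with a diet deficient in methionine and choline, is not named for them. The sources used here do not state if each library was made from 1 mouse or from a pool.

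Elastic fibers form when tropoelastin, the product of Eln, is laid down on microfibrils built from the fibrillins Fbn1 and Fbn2. Latent TGF-beta binding proteins are related to fibrillins in sequence and sit on the same microfibrils, where Ltbp1 holds TGF-beta in its latent form. Enzymes of the lysyl oxidase family then oxidize lysines of elastin and collagen, and the products crosslink. Nidogens are glycoproteins that tie the laminin network of a basement membrane to its type IV collagen network. In liver, elastic fibers lie mainly in portal tracts and vessel walls, and they accumulate in scars, while the sinusoids normally have only a sparse, discontinuous basement membrane.

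The promoter sequence is shown for 4 of the 10 members, those with an entry in the RefSeq promoter table (GRCm38.p6). Of these, 3 passed the test described below as higher with CCl4 and the fourth, Ltbp1, did not, which played no part in the choice. Each line gives the 180 bases before the outermost annotated start of the gene, read 5′ to 3′ on the strand of the gene. Capitals mark every match to one of 4 motifs searched on both strands, which were an AP-1 site (TGANTCA), a SMAD element (CAGAC), a GC box (GGGCGG) and a TATA box (TATAAA).
Fbn1, chr2:125506486-125506665, minus strand: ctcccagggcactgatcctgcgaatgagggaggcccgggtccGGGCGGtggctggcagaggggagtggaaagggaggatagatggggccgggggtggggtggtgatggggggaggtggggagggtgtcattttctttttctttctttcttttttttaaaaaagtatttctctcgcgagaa
Ltbp1, chr17:75005300-75005479, plus strand: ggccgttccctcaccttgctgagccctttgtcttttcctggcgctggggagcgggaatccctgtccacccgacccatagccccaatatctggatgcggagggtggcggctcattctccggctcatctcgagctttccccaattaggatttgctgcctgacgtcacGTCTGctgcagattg
Ltbp2, chr12:84876559-84876738, minus strand: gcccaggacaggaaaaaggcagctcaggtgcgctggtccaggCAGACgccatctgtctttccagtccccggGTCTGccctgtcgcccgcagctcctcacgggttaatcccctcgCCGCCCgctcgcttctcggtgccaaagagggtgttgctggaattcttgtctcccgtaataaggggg
Nid1, chr13:13437422-13437601, plus strand: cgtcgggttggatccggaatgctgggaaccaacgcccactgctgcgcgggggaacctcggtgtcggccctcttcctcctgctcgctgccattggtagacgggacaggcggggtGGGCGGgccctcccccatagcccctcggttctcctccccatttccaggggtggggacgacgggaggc

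The GC box was in the windows of Fbn1, Ltbp2 and Nid1, starting 138, 66 and 67 bases before the gene start. It was in 26.9% of 22415 promoter windows of this length. The SMAD element was in Ltbp1, 15 bases before the start, and at 2 places in Ltbp2, 138 and 109 bases before it. That element was in 32.7% of all windows. Neither the AP-1 site nor the TATA box, which 5.23% and 10.3% of all windows held, had a match in these 4 windows. The GC content of the 4 windows was 56.7% in Fbn1, 59.4% in Ltbp1, 62.8% in Ltbp2 and 69.4% in Nid1, beside a median of 51.7% over all windows. These matches describe letters in a short window, and no binding was measured. The deposited counts carry no coordinates, and the build in the submitters' processing notes, mm9, is another one than that of the promoter table, so only the gene symbol links the sequence to the counts.

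RNA abundance was compared between genes only as FPKM, the deposited read number corrected for transcript length and library depth. Most of the members were low in liver, and Nid1 was the highest of them in 5 of the 6 libraries. Over all 6, Nid1 was above 42.4% to 71.7% of the genes listed in the library, and in CCl4 Eln and Nid2 were above 60.8% and 55.8%. The FPKM of the 10 summed to 9.58 in CD, 11.05 in HFD, 7.71 in HFD plus JT003, 7.36 in Oil, 24.34 in CCl4 and 11.72 with both CCl4 and JT003. As CPM, the read number scaled to library depth without regard to length, the sums were 52.8, 63.2, 45.1, 36.5, 128 and 62.4, so the CCl4 library stood above the other 5 on both scales. Nid1 led the order of FPKM in CD, HFD and HFD plus JT003, where it made up 33.9%, 45.0% and 50.3% of the summed FPKM. In Oil the first place went to Eln with 1.89 FPKM, followed by Loxl1 with 1.39 and Nid1 with 1.38. For 8 of the 10 members the highest FPKM was in the CCl4 library, and for the other 2, Fbn1 and Ltbp1, it was in HFD. With 1 library per condition there is no spread between samples against which neighbours in these orders could be compared.

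**Figure D1:**
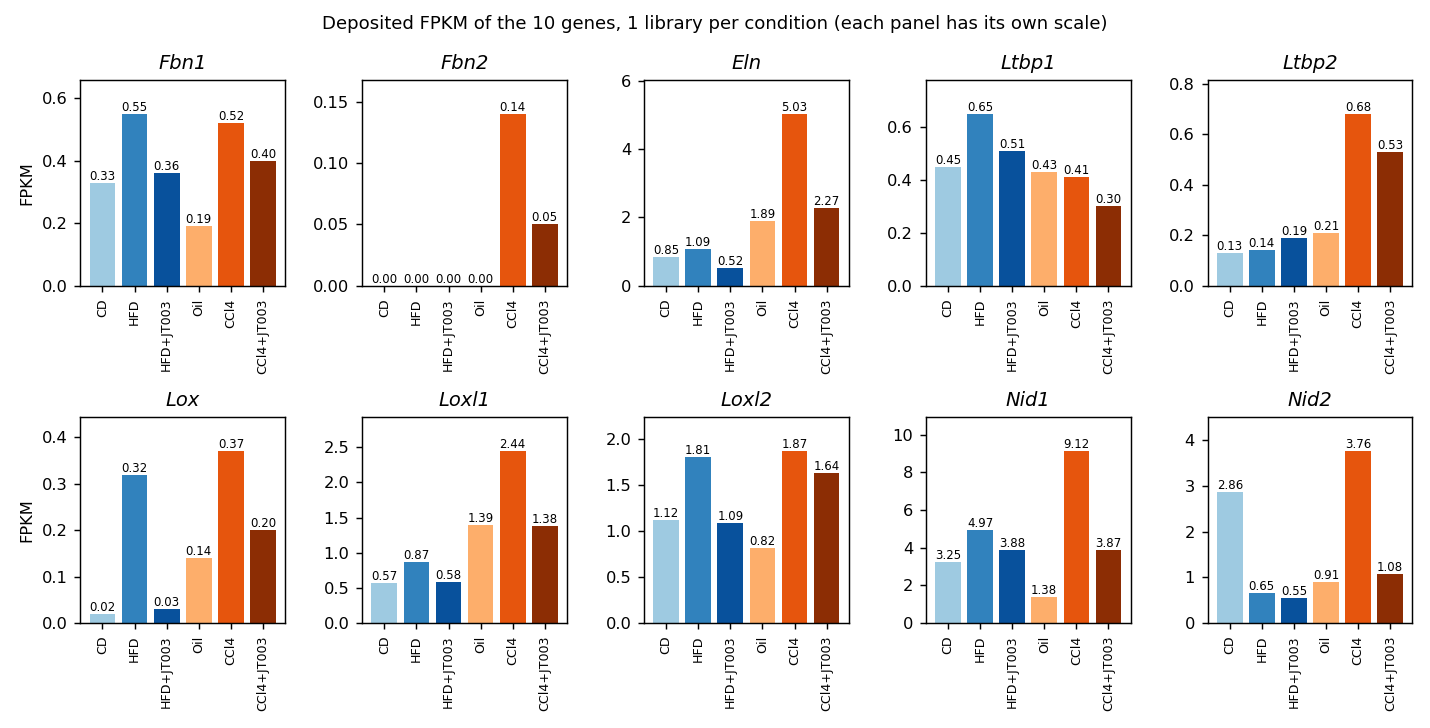
Bars show the deposited FPKM of each of the 10 genes (vertical axes, from 0, a separate scale per panel) in the 6 libraries, 1 bar per library and no error bars because each condition has 1 library. Fbn2 has bars in CCl4 and CCl4 plus JT003 only (0.14 and 0.05), Lox is tall in HFD beside CD and HFD plus JT003 (0.32 beside 0.02 and 0.03), and Nid2 is tall in CD and CCl4 (2.86 and 3.76).

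The rounded expected counts of a library summed to 19374236 to 20184557. For each pair of libraries, the reads of every gene seen in either one were compared by an exact conditional binomial test (two-sided) on TMM-scaled library sizes, and p was adjusted by Benjamini-Hochberg over all genes compared. Calls required an adjusted p below 0.001 together with a log2 ratio of 1 or more in either direction, with 2 counts added to each side as a prior. Each log2 ratio below is followed by its 95% Clopper-Pearson interval, which covers counting error only. Such a test compares 2 libraries and not 2 conditions, and a difference between single mice would pass it as well as an effect of treatment. Scaling to total reads in place of TMM moved the median log2 ratio of all genes by 0.12 for HFD over CD, 0.14 for HFD plus JT003 over CD, 0.23 for CCl4 over Oil and 0.3 for CCl4 plus JT003 over Oil. The share of all calls that were higher moved with it, from 54.3% to 65.7%, from 53.5% to 66.8%, from 66.1% to 81.7% and from 65.0% to 86.1% in the same order. It also moved from 40.7% to 30.0% for Oil over CD, and from 42.8% to 51.1% for CCl4 plus JT003 over CCl4, where the majority of all calls turned from lower to higher.

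CCl4 against Oil asked what the fibrosis model did to these genes. Of the 10 members, 6 were called higher in the CCl4 library (Fbn1, Fbn2, Eln, Ltbp2, Nid1 and Nid2) and 0 lower. Of all 17234 genes tested, 4.80% were called higher and 2.46% lower. The median log2 ratio of the members was 1.17, beside 0.0046 over all genes. Setting the 0 reads of Fbn2 in Oil at 3 could not move this median, as Fbn2 stayed the highest of the 10 (log2 3.08). Under edgeR's exact test with an assumed coefficient of variation between mice of 0.2, the calls of Fbn2 and Nid1 were left, 2 of 10, and with 0.4 there were 0. Shares of all genes called under these assumed values are not given, here or below.

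CCl4 plus JT003 against CCl4 asked whether the agonist changed them in that model. Of the 10 members, 3 were called lower (Eln, Nid1 and Nid2) and 0 higher, where 2.55% of 17393 genes were called lower and 1.91% higher. All 10 log2 ratios were below 0, from -0.25 in Loxl2 to -1.85 in Nid2, with a median of -0.87 beside -0.0036 over all genes. With an assumed coefficient of variation of 0.2 or 0.4 there were 0 calls. This comparison shares the CCl4 library with the one before it, so a high or low count in that 1 library enters both with opposite sign. Against Oil, the CCl4 plus JT003 library had 1 member called higher, Nid1, and 0 lower, where 3.29% of 17338 genes were called higher and 1.77% lower. The median of the 10 log2 ratios was 0.50 there.

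HFD against CD asked the same of the diet model. Of the 9 members with reads in that model, 1 was called higher (Lox) and 1 lower (Nid2), where 2.96% of 16973 genes were called higher and 2.49% lower. The other 7 had log2 ratios between -0.01 and 0.59, and the median of the 9 was 0.46 beside -0.00035 over all genes. HFD plus JT003 against HFD, which shares the HFD library, had 2 members called lower (Eln and Lox) and 0 higher, where 0.901% of 17090 genes were called lower and 0.767% higher. The median of the 9 log2 ratios was -0.57 beside -0.0075 over all genes. An assumed coefficient of variation of 0.2 left the call of Nid2 between HFD and CD and removed those of Lox and Eln, and with 0.4 there were 0 calls in both comparisons. Against CD, the HFD plus JT003 library had 1 member called lower, Nid2, and 0 higher, where 2.78% of 17012 genes were called lower and 3.20% higher.

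The control libraries of the models, Oil and CD, differed in some of these genes as well. Of the 9 members tested, 2 were called higher in Oil (Eln and Loxl1) and 2 lower (Nid1 and Nid2), where 2.24% of 17018 genes were called higher and 3.27% lower. Under an assumed coefficient of variation of 0.2 or 0.4 there were 0 calls here too. These 2 libraries differ in diet, injection, experiment, its length and mice, which cannot be told apart. The methods give 16 weeks of diet for CD and 6 weeks of injections for Oil, so age at collection probably differed too. The size of the differences between these livers without disease was 2.38-fold for Eln and 0.34-fold for Nid2. Cell markers differed between them as well. All 5 macrophage markers were called lower in Oil (median log2 ratio -2.47), as were 3 of 8 stellate cell and 2 of 7 endothelial markers. Called higher in Oil were 3 of 4 mesothelial (median 3.08), 3 of 4 smooth muscle (median 2.93), 3 of 6 portal fibroblast, 2 of 6 myofibroblast and 1 of 4 bile duct markers. Their part in the differences of the members was not tested.

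**Figure D2:**
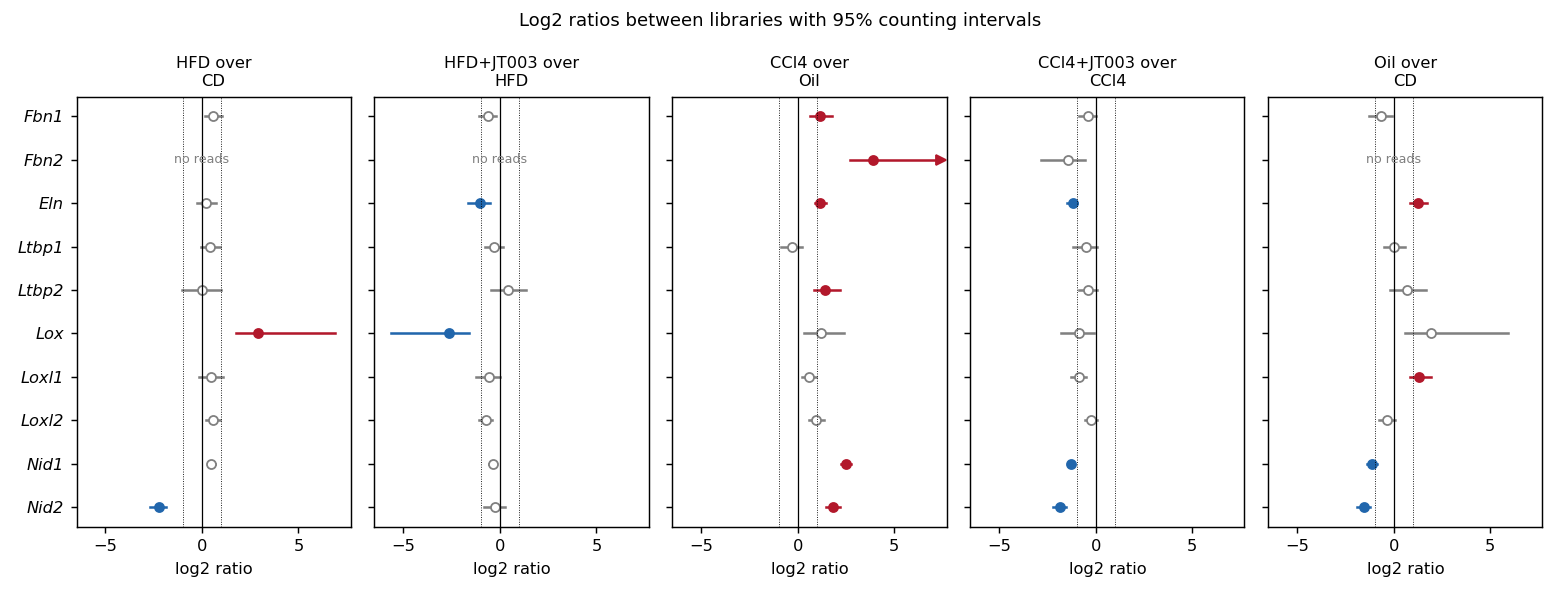
Each panel plots the log2 ratio of 1 library over another (horizontal axis) for the 10 genes (rows), with lines for the 95% counting interval, filled red or blue symbols for genes called higher or lower, open symbols for the others and dotted lines at a log2 ratio of 1 in either direction. The arrow for Fbn2 stands for an interval without an upper end. A reader should see 6 filled symbols in CCl4 over Oil, 3 in CCl4 plus JT003 over CCl4 and 4 in Oil over CD.

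Fbn1 encodes the main fibrillin of adult tissue, and its promoter window is the first of those shown above. It had 68 reads in CD, 110 in HFD, 71 in HFD plus JT003, 38 in Oil, 105 in CCl4 and 78 with both CCl4 and JT003. Both disease libraries had over 100 reads and the other 4 had fewer. The CCl4 library was 2.26-fold above Oil, with a log2 ratio of 1.14 (0.63 to 1.75) and an adjusted p of 3.29e-05 in the exact test. The HFD library was 1.52-fold above CD, which did not pass the call (log2 0.59, 0.15 to 1.06). With JT003 the log2 ratio was -0.64 (-1.11 to -0.21) in the diet model and -0.43 (-0.88 to -0.0031) in the CCl4 model, neither of them called.

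Fbn2 encodes the fibrillin that is mostly made in developing tissue. It had 0 reads in CD, HFD, HFD plus JT003 and Oil, 31 in CCl4 and 10 with both CCl4 and JT003. A count of 0 allows up to 3 reads in a library of this depth. With 3 reads in Oil, the CCl4 library would be 8.46-fold higher than Oil and the CCl4 plus JT003 library 2.71-fold higher. The 95% counting intervals of these 2 folds, taken with the 0 reads, had lower ends at 6.48 and 1.82 and no upper end. The difference of CCl4 from Oil was called (adjusted p = 6.21e-08, exact test) and that of CCl4 plus JT003 was not (adjusted p = 0.0111, exact test). Between the 2 libraries with reads, the fold with JT003 was 0.32 (0.14 to 0.67), a log2 ratio of -1.47 that was past the fold but not past the adjusted p (0.00338, exact test).

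Eln, the gene of tropoelastin, had 67 reads in CD, 84 in HFD, 40 in HFD plus JT003, 144 in Oil, 396 in CCl4 and 172 with both CCl4 and JT003. The 3 libraries of the CCl4 experiment were all above the 3 of the diet experiment. CCl4 was 2.25-fold above Oil, with a log2 ratio of 1.16 (0.89 to 1.46). The difference between the control libraries was as large, with Oil 2.38-fold above CD (log2 1.23, 0.83 to 1.69). With JT003 the log2 ratio was -1.20 (-1.48 to -0.95) in the CCl4 model and -1.06 (-1.67 to -0.53) in the diet model, both called. The CCl4 plus JT003 library was then 0.97-fold Oil (0.77 to 1.22), a log2 ratio of -0.04 that becomes 0.26 when libraries are scaled to total reads. Elastin is also made by vessel smooth muscle, and 4 marker genes of that cell type were read beside it. Their summed FPKM was 1.57 in CD, 2.3 in HFD, 1.79 in HFD plus JT003, 3.66 in Oil, 3.52 in CCl4 and 2.27 with both CCl4 and JT003. Actg2 was at 0 in HFD and Cnn1 at 0 in HFD plus JT003. In the CCl4 experiment Cnn1 and Actg2 had 24 and 22 reads in Oil and 0 in CCl4, Myh11 was lower in CCl4 (52 reads beside 115) and Smtn higher (213 beside 86). The part of vessel content in the values of Eln was not tested.

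Ltbp1, which anchors latent TGF-beta in the matrix, had 64 reads in CD, 92 in HFD, 76 in HFD plus JT003, 59 in Oil, 58 in CCl4 and 40 with both CCl4 and JT003. It was the one member with a log2 ratio below 0 in CCl4 over Oil, at 0.81-fold Oil (0.55 to 1.18). Its log2 ratio of -0.30 has an interval of -0.86 to 0.23, and the sign turns to 0.21 when the pooled CCl4 column described below takes the place of the library. The other comparisons of Ltbp1 gave log2 ratios from -0.83 to 0.42, none of them called. The deposited mean transcript length of Ltbp1 ran from 6771 to 7348.24 bases between libraries, so the authors' estimate of its isoform mix differed between libraries.

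Ltbp2 binds fibrillin and differs from its relatives in that it does not hold latent TGF-beta. It had 18 reads in CD, 19 in HFD, 26 in HFD plus JT003, 27 in Oil, 92 in CCl4 and 69 with both CCl4 and JT003. Both CCl4 libraries had more reads than the other 4. CCl4 was 2.79-fold above Oil (log2 1.42, 0.85 to 2.16; adjusted p = 3.66e-06, exact test). With JT003 the log2 ratio was -0.42 (-0.90 to 0.04), not called, and the CCl4 plus JT003 library was 2.08-fold above Oil (1.31 to 3.37), a log2 ratio of 1.01 with an adjusted p of 0.00401 in the exact test. HFD and CD differed by a log2 ratio of -0.01 (-1.02 to 1.00), which turns to 0.1 with total reads.

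Lox, the founding member of the lysyl oxidases, was the member with the fewest reads after Fbn2. It had 2 reads in CD, 29 in HFD, 3 in HFD plus JT003, 12 in Oil, 36 in CCl4 and 19 with both CCl4 and JT003. HFD was high and its 2 partner libraries were at 3 reads or fewer. The fold of HFD over CD was 13.6 with a counting interval of 3.44 to 118, and that of HFD plus JT003 over HFD was 0.10 with an interval of 0.02 to 0.33. The log2 ratios with a prior count of 2 were 2.89 (1.78 to 6.88) and -2.65 (-5.66 to -1.61), with adjusted p of 3.71e-06 and 1.2e-05 in the exact test. In the CCl4 model the same gene was not called, at 2.46-fold Oil (1.25 to 5.19; adjusted p = 0.0161, exact test) and, with JT003, 0.52-fold CCl4 (0.28 to 0.94; adjusted p = 0.0575, exact test).

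Loxl1, the relative most tied to elastic fiber upkeep, had 39 reads in CD, 58 in HFD, 39 in HFD plus JT003, 91 in Oil, 166 in CCl4 and 90 with both CCl4 and JT003. The 3 libraries of the CCl4 experiment were again above those of the diet experiment. Oil over CD was its one called difference, at 2.59-fold (1.76 to 3.87). CCl4 over Oil had a log2 ratio of 0.57 (0.20 to 0.96), and with JT003 the ratio was -0.88 (-1.28 to -0.52), which had an adjusted p of 9.81e-06 in the exact test but fell short of the fold.

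Loxl2, which oxidizes collagens including type IV, had 119 reads in CD, 188 in HFD, 114 in HFD plus JT003, 84 in Oil, 198 in CCl4 and 167 with both CCl4 and JT003. It was high in HFD and in both CCl4 libraries. None of its differences was called. CCl4 was 1.93-fold above Oil (1.49 to 2.52; adjusted p = 1.23e-06, exact test), just short of the fold, and HFD was 1.48-fold above CD (1.17 to 1.88). With JT003 the log2 ratio was -0.73 (-1.09 to -0.40) in the diet model and -0.25 (-0.56 to 0.05) in the CCl4 model. Whether the effect of JT003 differs between the models was not tested. Its expected counts were not whole in 6 of 6 libraries, so some reads were shared with other genes by the authors' counting.

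The summed FPKM of Lox, Loxl1 and Loxl2 was 1.71 in CD, 3.0 in HFD, 1.70 in HFD plus JT003, 2.35 in Oil, 4.68 in CCl4 and 3.22 with both CCl4 and JT003. Lox itself made up 1.17% of that sum in CD, 10.7% in HFD, 1.76% in HFD plus JT003, 5.96% in Oil, 7.91% in CCl4 and 6.21% with both CCl4 and JT003.

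Nid1 was the member with the most reads, 402 in CD, 602 in HFD, 473 in HFD plus JT003, 165 in Oil, 1128 in CCl4 and 460 with both CCl4 and JT003. Oil had the fewest and CCl4 the most. CCl4 was 5.6-fold above Oil (log2 2.47, 2.25 to 2.73). CCl4 plus JT003 was 0.41-fold CCl4 (log2 -1.30, -1.46 to -1.15) and 2.27-fold Oil (log2 1.17, 0.92 to 1.45), all of them called. Oil itself was 0.46-fold CD (log2 -1.13, -1.41 to -0.87), and the CCl4 plus JT003 library was at 3.87 FPKM beside 3.25 in CD. In the diet model the differences were smaller and not called, 1.41-fold for HFD over CD (1.24 to 1.60) and 0.77-fold with JT003 (0.68 to 0.87), although both had adjusted p below the threshold (6.64e-07 and 0.00023, exact test).

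Nid2 had 288 reads in CD, 64 in HFD, 54 in HFD plus JT003, 88 in Oil, 378 in CCl4 and 104 with both CCl4 and JT003. CD and CCl4 were high and the other 4 were low. It was the member called in opposite directions in the 2 models, with HFD 0.21-fold CD (log2 -2.23, -2.68 to -1.87) and CCl4 3.52-fold Oil (log2 1.79, 1.48 to 2.17). CCl4 plus JT003 was 0.27-fold CCl4 (log2 -1.85, -2.20 to -1.56) and 0.96-fold Oil (0.72 to 1.29), the last with a log2 ratio of -0.06 that becomes 0.24 with total reads. JT003 in the diet model gave 0.83-fold (0.57 to 1.21), which was not called. The ratio of Nid2 to Nid1 in FPKM was 0.88 in CD, 0.131 in HFD, 0.142 in HFD plus JT003, 0.659 in Oil, 0.412 in CCl4 and 0.279 with both CCl4 and JT003. The counts of Nid2 were not whole in 6 of 6 libraries, so it too shared reads with other genes.

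These are whole-liver libraries, in which more cells of a type and more RNA per cell cannot be told apart. The 6 hepatocyte markers all had reads in all 6 libraries and summed to 41710 FPKM in CD, 41410 in HFD, 47850 in HFD plus JT003, 47210 in Oil, 54560 in CCl4 and 52760 with both CCl4 and JT003. Marker lists of other cells moved in the same libraries as the members. Of 6 myofibroblast markers, the summed FPKM was 33.49 in Oil, 107.7 in CCl4 and 105.8 with both CCl4 and JT003, but 1 gene, Spp1, a matrix protein that bile duct cells also make, held 21.04, 90.54 and 95.07 of these sums. Spp1 was the one marker of the list called higher in CCl4, and 2 of the 6 had log2 ratios below 0 (median 0.49). With JT003, Acta2 and Tagln, the contractile markers of that list, were called lower. Of 5 macrophage markers, 4 were called higher in CCl4, and the sum was 20.72, 56.13 and 113.7 in the same order, with Marco called higher again with JT003. Of 4 bile duct markers, 3 were called higher in CCl4, and the sum was 5.64, 13.92 and 10.66, with Sox9 called lower with JT003. The 8 stellate cell markers summed to 79.63, 61.21 and 71.81, with Ecm1 called lower in CCl4, while 5 of the 8 had log2 ratios above 0 in CCl4 over Oil (median 0.40). The 6 portal fibroblast markers summed to 26.93, 33.68 and 39.97, with Entpd2 called higher in CCl4, while 4 of the 6 had log2 ratios below 0 in CCl4 over Oil (median -0.02) and 4 of 6 in CCl4 plus JT003 over CCl4 (median -0.245). The 7 endothelial markers summed to 42.79, 29.36 and 45.82, with Kdr called lower in CCl4, and the 4 mesothelial markers to 6.47, 6.26 and 3.2, with Msln and Upk3b called lower with JT003. In the diet model the myofibroblast list summed to 19.65 in CD, 35.08 in HFD and 21.27 with both HFD and JT003, of which Spp1 held 13.83, 23.77 and 13.07, with Timp1 and Postn called higher in HFD, and the stellate list to 102.1, 123.2 and 128.1, with Lrat called higher. The macrophage list summed to 93.78, 101.2 and 140.3, the portal fibroblast list to 18.44, 20.99 and 21.03, with Clec3b at 0 in CD and HFD, and the endothelial list to 67.48, 72.9 and 87.45, with Lyve1 called higher in HFD. One hepatocyte marker, Cps1, was called lower in HFD. The bile duct and mesothelial lists, at 2.27, 2.33 and 3.62 and at 0.76, 0.86 and 2.14, each had 1 gene called higher with JT003, Krt19 and Msln. Apart from Clec3b and the smooth muscle genes, no marker of these lists was at 0 in any library. The part of cell composition in the results for the members was not tested.

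Of 5 lists of related genes, fibrillar collagens were the one with the largest share called in CCl4 over Oil, 5 of 8 genes higher and 0 lower, with a median log2 ratio of 1.41. Col1a1 went from 231 reads in Oil to 2483 in CCl4 (log2 3.13) and 876 with JT003 (log2 -1.51 against CCl4), and Col3a1 from 291 to 2214 (log2 2.63) and 1208. Col1a2, Col5a2 and Col5a1 were the other 3, with log2 ratios of 2.37, 1.61 and 1.21. With JT003 in that model, Col1a1 and Col1a2 were called lower and no fibrillar collagen was called higher. In HFD over CD, 4 of 7 tested were called higher (Col1a1, Col1a2, Col3a1 and Col5a2), and in HFD plus JT003 over HFD the first 3 of these were called lower.

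Of 16 other elastic fiber and microfibril genes, 2 were called higher and 1 lower in CCl4 over Oil, with a median of 0.37. Mfap2, a small protein bound to fibrillin, had 5 reads in Oil, 30 in CCl4 and 20 with both CCl4 and JT003, and Emilin1, found where elastin meets the microfibril, had 193, 479 and 383. The one called lower was Efemp1, a member of the fibulin family, with 132, 63 and 96 reads. None of the 16 was called in CCl4 plus JT003 over CCl4, in HFD over CD or in HFD plus JT003 over HFD with the exact test.

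Among 14 other crosslinking and collagen modification genes, Loxl4, a further lysyl oxidase, was called higher and Fmod, a small proteoglycan of collagen fibrils, lower in CCl4 over Oil, with a median of 0.09. Loxl4 had 69 reads in CD, 38 in HFD, 44 in HFD plus JT003, 20 in Oil, 206 in CCl4 and 20 with both CCl4 and JT003. Its log2 ratio was 2.97 (2.41 to 3.82) for CCl4 over Oil and -3.25 (-4.12 to -2.71) with JT003, both farther from 0 than those of Lox, Loxl1 and Loxl2. Fmod had 27 reads in CD, 66 in Oil, 36 in CCl4 and 50 with both CCl4 and JT003, and was called higher in Oil than in CD (log2 1.37). The one gene of the list called in the diet model was P4ha1, a prolyl hydroxylase subunit named after its values were seen, with 251 reads in CD, 608 in HFD and 237 with both HFD and JT003.

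Of 22 basement membrane genes other than the nidogens, 4 were called higher and 2 lower in CCl4 over Oil, with a median of 0.34. Sparc, a collagen-binding protein, rose from 858 to 3138 reads (log2 1.58), Col4a5 from 34 to 121 and the laminin chain Lama1 from 29 to 87. Lama1 had 101 reads in CD, more than in CCl4, and was called lower in Oil than in CD (log2 -1.59). The fourth called higher in CCl4 was Col4a2, named after its values were seen, with 311 and 810 reads. The 2 lower were the laminin chains Lamb3, with 503 and 189 reads, and Lama3, with 86 and 37. Lamb3 also had 2193 reads in CD and 164 in HFD, a log2 ratio of -3.82 in the comparison in which Nid2 was called lower, and 3 of the 22 were called lower there and 0 higher. None of the 22 was called in CCl4 plus JT003 over CCl4.

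The list on latent TGF-beta had 13 of 14 genes in the libraries, with 2 of 12 tested called higher in CCl4 over Oil and 0 lower. Thbs1, an activator of latent TGF-beta, had 18 reads in CD, 125 in HFD, 30 in HFD plus JT003, 22 in Oil, 67 in CCl4 and 38 with both CCl4 and JT003. Like Lox it was high in HFD beside both of its partner libraries. Tgfb1, the ligand itself, had 103 reads in Oil, 257 in CCl4 and 209 with JT003. None of the 13 tested was called in CCl4 plus JT003 over CCl4. In HFD plus JT003 over HFD, 3 of 13 were called lower and 0 higher, with a median of -0.76, where 0.901% of all genes were called lower.

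**Figure D3:**
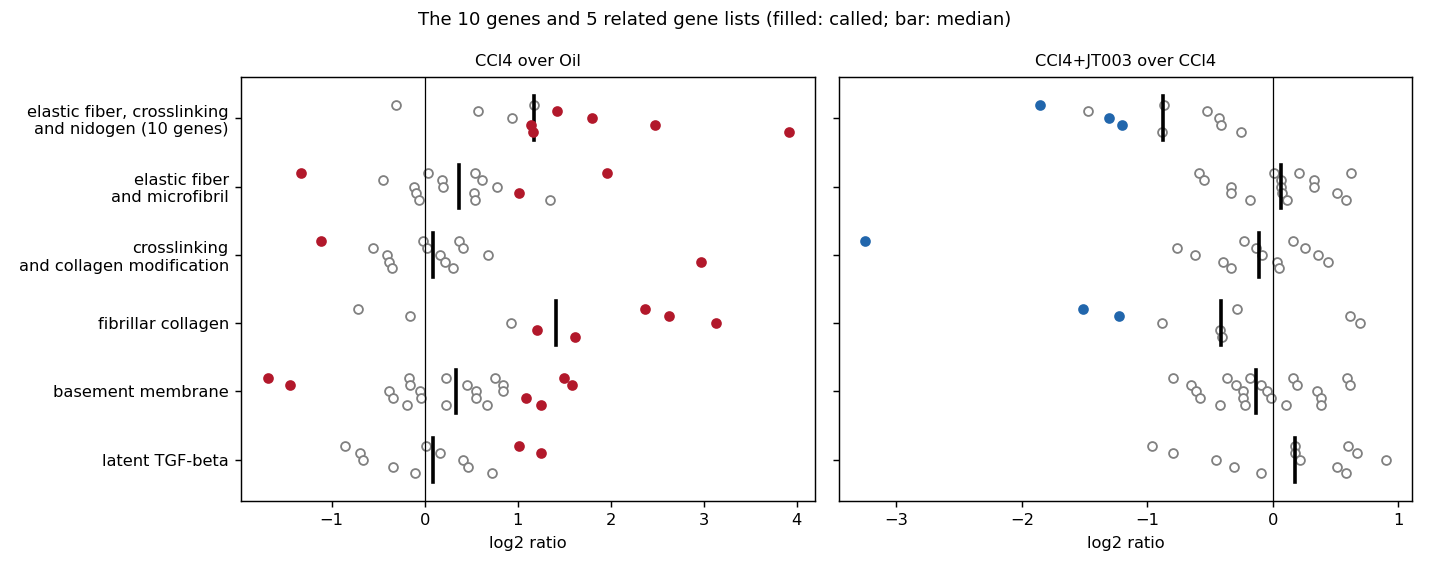
Points are the log2 ratios (horizontal axes) of single genes in CCl4 over Oil (left) and CCl4 plus JT003 over CCl4 (right), in rows for the 10 genes described here and the 5 related lists, with filled points for genes called and a vertical bar at the median. On the left the medians of the first row and of the fibrillar collagens lie at 1.17 and 1.41 and those of the other 4 lists at 0.09 to 0.37, and on the right the first row has all of its points below 0.

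One of the deposited comparison tables has a CCl4 column with a total 2.97 times that of the CCl4 library. For all but 24 genes it is at least as high as that library, and those 24 fall short by at most 0.99 reads, so it was taken as a pool that contains the library, which is inferred from the values. Which libraries were pooled is not given there. The reads left after subtracting the library, 39780549 in total, are the one other look at livers labelled as CCl4. In CPM after TMM scaling, Nid1 was at 9.83 in Oil, 55.0 in the CCl4 library, 70.7 in the other CCl4 reads and 22.3 in CCl4 plus JT003. Nid2 was at 5.27, 18.4, 13.7 and 5.05, and Eln at 8.58, 19.3, 20.9 and 8.33 in that order. Fbn2, with 0 reads in Oil, was at 1.51 in the library, 2.94 in the other reads and 0.484 with JT003. For these 4 genes, and for all other members except Ltbp1, both CCl4 values were above both of the others.

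Lox was at 0.715 in Oil, 1.76 in the CCl4 library, 3.56 in the other CCl4 reads and 0.92 in CCl4 plus JT003, and Loxl2 at 5.0, 9.64, 14.2 and 8.11. Fbn1 was at 2.26, 5.12, 9.31 and 3.78, and Ltbp2 at 1.61, 4.49, 8.34 and 3.34. Loxl1 was at 5.42, 8.10, 8.10 and 4.36. Ltbp1 was at 3.52, 2.83, 4.71 and 1.94, so it was below Oil in the library and above it in the other reads. With the other reads in place of the library, 8 of the 10 members were called higher than Oil, and 8 of 10 were called lower with JT003, beside 6 and 3 with the library. The other reads total 1.97 times the library, and at that depth more differences pass the adjusted p of a counting test. The shares called over all genes are not given for these 2 comparisons, so the counts cannot be set against them. Between the other reads and the library, 0 members were called, the median log2 ratio was 0.62 beside 0.029 over all genes, and the intervals of 7 members lay above 0. That of Nid2 lay below 0, with a log2 ratio of -0.44 (-0.62 to -0.24). Of 17471 genes, 1.45% were called higher in the other reads and 0.24% lower.

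**Figure D4:**
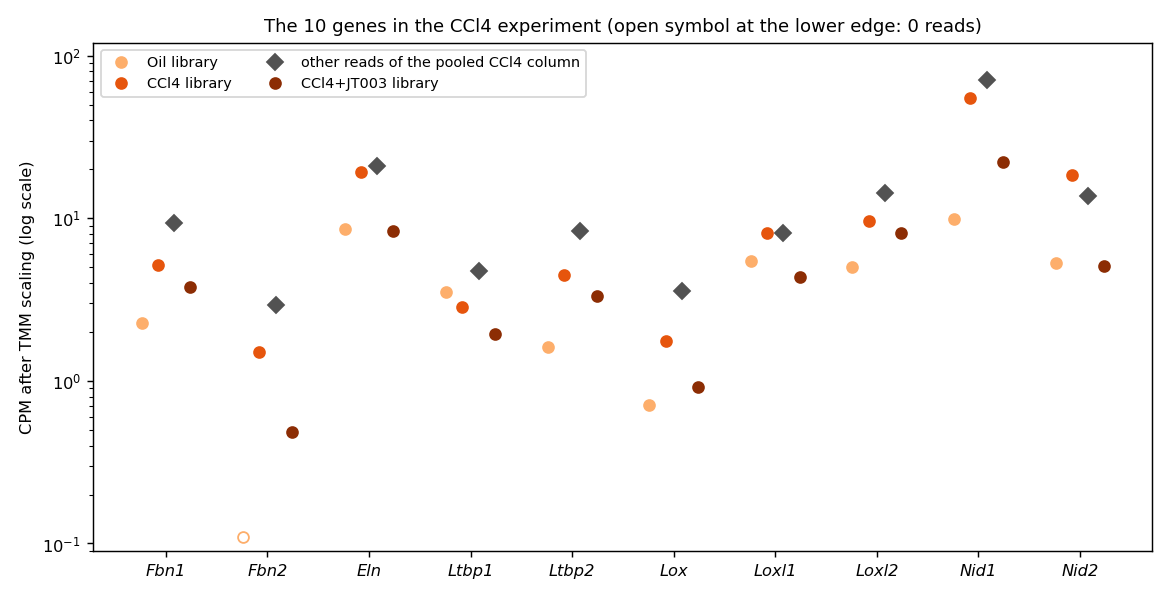
Symbols show reads scaled to library depth (CPM) after TMM scaling (vertical axis, log scale) of the 10 genes in the Oil library, the CCl4 library, the other reads of the pooled CCl4 column and the CCl4 plus JT003 library, with an open symbol at the lower edge for 0 reads. Both CCl4 symbols lie above Oil in 9 of the 10 genes, with Ltbp1 the exception at 2.83 in the library beside 3.52 in Oil.

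For each of the 6 members called in CCl4 over Oil, the 3 genes with the most similar profile were listed, by the root mean square difference of log2 CPM, centred on each gene's mean over the 6 libraries, among 10279 genes with at least 100 reads in 1 library. Nid2 was nearest to Slc16a1, a lactate transporter, at 0.18, followed by Peg10 and St5 at 0.20 and 0.37. Slc16a1 had 4565 reads in CD, 1240 in HFD, 998 in HFD plus JT003, 1875 in Oil, 5330 in CCl4 and 1844 with both CCl4 and JT003. It was picked for its likeness to Nid2, so its high values in CD and CCl4 are no separate evidence for the pattern of Nid2. Nid1 was nearest to Elmo1, Olfm3 and Cnp at 0.18 to 0.21, and Fbn1 to Cotl1, Pkm and Olfml1 at 0.13. Eln was nearest to Klk1b4, Mmd2 and Fam25c at 0.21 to 0.22, and Ltbp2 to Cdkn2c, Atpif1 and Mgst3 at 0.16 to 0.19. Fbn2 was nearest to Pkmyt1, Cdk1 and Ptgr1 at 0.19 to 0.37. Cdk1 had 14 to 25 reads in the 4 libraries without Fbn2, 476 in CCl4 and 119 with both CCl4 and JT003. In those 4 libraries the profile of Fbn2 is the prior of 2 counts alone. These 3 genes reached 100 reads only in libraries with reads of Fbn2, so their likeness to it is in part set by the prior and the read filter. These likenesses are over 6 libraries of which 1 carries each condition.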

How the data were processed

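Liver RNA was sequenced on a BGISEQ-500 instrument in 6 libraries, 1 per condition. The authors deposited, per library and gene, an expected count, which is their estimate of the reads of the gene without normalization and need not be whole, and an FPKM value. The submitters' processing notes name HISAT, Bowtie2, RSEM and mm9. The 4 deposited comparison tables hold fold changes and p-values of the authors, which were not used, and of their expression columns 7 were not used. A pooled CCl4 column of expected counts, deposited in one of them, was used as described.

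Groups were taken from the labels. The members, the related gene lists and the marker lists were chosen with earlier results of these data known. Expected counts were rounded and scaled by TMM over the 3 libraries of a model, or over all 6 for Oil over CD (edgeR 4.0.16, R 4.3.3). The exact test and the Clopper-Pearson intervals were computed with scipy 1.17.1, numpy 2.4.6 and pandas 2.3.3 in Python 3.11.15, and plots with matplotlib 3.10.9. The test was checked on simulated counts with known changes. No replicate model could be fitted to 1 library per condition. Named were the 10 members, up to 5 genes per related list called in CCl4 over Oil or in CCl4 plus JT003 over CCl4 with the largest log2 ratio, and the 3 most similar profiles of each member called in CCl4 over Oil. Alternatives were total reads, DESeq2 1.42.0 size factors, TMM over 6 libraries, at least 10 counts, other thresholds, a prior of 0.5 counts, an assumed coefficient of variation of 0.2 or 0.4 in the exact test of edgeR, log2 of FPKM plus 1 or 0.1, and the pooled CCl4 counts. Promoters were read from a RefSeq table (GRCm38.p6), which held 4 of the 10 members.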

Additional observations from a re-analysis of the deposited data

Results flagged for a closer look

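Nid2 was called in opposite directions in the 2 models, with a log2 ratio of -2.23 for HFD over CD and 1.79 for CCl4 over Oil. Each ratio rests on 1 library per side, and the difference between the models was not tested. The reads of the library were 288 in CD and 88 in Oil, so the controls of the models differed as well.

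In the reads of the pooled CCl4 column that are not in the CCl4 library, Lox and Loxl2 were called higher than Oil, with log2 ratios of 2.2 and 1.48. Neither was called with the CCl4 library, where the log2 ratios were 1.18 and 0.93. Which livers gave these reads is not named in the table.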

How the results depend on the processing

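No paired analysis was possible because the labels give no replicate numbers and each condition has 1 library, and for the same reason there was no replicate to leave out in turn. The exact test sees counting error only. Of 822 values of single members under another setting, 722 kept their direction and their side of the threshold, 45 were no longer called, 35 became called and 20 turned sign. The cause of these changes was not tested. Settings that changed only a threshold or the read filter kept the same log2 ratios, so they could not turn a sign. TMM over 6 libraries left the log2 ratios of the diet comparisons as they were. The 722 therefore include values that could not move.

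With an assumed coefficient of variation of 0.2, the number of members called fell to 1 for HFD over CD, 2 for CCl4 over Oil, and 0 for HFD plus JT003 over HFD, CCl4 plus JT003 over CCl4, CCl4 plus JT003 over Oil and Oil over CD. With 0.4 it was 0 in all 7 comparisons. Log2 of FPKM plus 1 with a fold alone gave 1 for HFD over CD, 0 for HFD plus JT003 over HFD, 3 for CCl4 over Oil and 1 for Oil over CD, with medians of the members at -0.24 for HFD plus JT003 over HFD, 0.50 for CCl4 over Oil, -0.16 for CCl4 plus JT003 over CCl4 and 0.15 for CCl4 plus JT003 over Oil. A pseudocount of 0.1 gave 1 for HFD plus JT003 over HFD and 2 for CCl4 plus JT003 over Oil. Without a threshold on the log2 ratio there were 4 for HFD plus JT003 over HFD. For CCl4 plus JT003 over Oil, total reads, an adjusted p below 0.05 and the log2 ratio alone each gave 3, and total reads moved the median to 0.78. The pooled and the remaining CCl4 counts each gave 8 lower for CCl4 plus JT003 over CCl4, with medians of -1.18 and -1.30, and medians of 1.65 and 1.73 for CCl4 over Oil. Both hold more reads than the CCl4 library, so more differences can pass the adjusted p. For CCl4 plus JT003 over Oil, total reads also raised the number of all genes called higher from 570 to 1096. Shares of all genes called under the other settings are not given, so these counts of members cannot be set against them.

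The values that turned sign were not called on either side. With total reads, log2 of FPKM plus 1 and log2 of FPKM plus 0.1, in that order, they were 0.10, 0.013 and 0.061 for Ltbp2 in HFD over CD, 0.084, 0.032 and 0.0973 for Fbn1 and 0.023, 0.0092 and 0.021 for Loxl1 in HFD plus JT003 over CD, 0.26, 0.18 and 0.25 for Eln and 0.24, 0.12 and 0.22 for Nid2 in CCl4 plus JT003 over Oil, and -0.059, -0.02 and -0.0534 for Ltbp1 in Oil over CD. For Ltbp1 in CCl4 over Oil they were 0.21 with the pooled and 0.40 with the remaining CCl4 counts.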
